A study of Homo sapiens with 29 samples.

Results

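The genes described here are 10 members of the actin cytoskeleton and of the program of serum response factor (SRF): the cytoplasmic actins ACTB and ACTG1, the smooth muscle actin ACTA2, the actin-binding proteins TAGLN, TPM1, TPM2, CALD1 and VCL, the myosin light chain MYL9, and SRF itself. A probe set, the unit that the array reports, was taken when the array's annotation gave it one of these symbols, and the 3 actin control probe sets of the manufacturer were added. These are 10 of the 21357 genes that the annotation names, and they are read by 48 of 54675 probe sets. Of the 48, 36 passed the minimum level of 37.4 intensity units and are among the 27310 probe sets tested. The genes were chosen on the lower log2 ratio of the 3′ to the 5′ actin control at 500 and 1000 nM. Values of the members at those doses against DMSO, and the dose trend that rests on them, are therefore given as a description with their error and no p-value, and adjusted p-values are given for the members only at lower doses and for 1000 against 500 nM.

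BEAS-2B cells, an established line from human bronchial epithelium carrying the large T antigen of SV40, were kept subconfluent without serum in LHC-9 medium, and the plates had a coat of fibronectin, collagen and albumin. Cultures received N-OH-PhIP for 24 h at 0.1, 0.5, 1, 5, 10, 50, 100, 500 or 1000 nM, or the solvent DMSO alone, and all cultures including the controls held 1% DMSO. This compound is what N-hydroxylation makes of PhIP, an amine formed when meat is cooked, and it can go on to form DNA adducts. The dose at which transcription begins to respond was the question of the series. Each group held 3 arrays from separate cultures, except 0.5 nM with 2, giving 29 arrays of 1 cell line, and every comparison with DMSO shares the same 3 DMSO arrays.

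SRF is a DNA-binding factor that acts on many genes of the cytoskeleton through a short sequence called the CArG box. Its cofactors MRTFA and MRTFB bind monomeric actin and are held out of the nucleus by it, so that the assembly of monomers into filaments releases them and turns on genes for actin, tropomyosin, vinculin and myosin light chain. Ternary complex factors such as ELK1 and ELK4 compete with the MRTFs for SRF and link it to growth factor signalling. In bronchial epithelial cells the same proteins build stress fibres, the cortical actin ring and focal adhesions, where vinculin ties actin to integrins.

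The promoters of the members show which of them carry the sequence that SRF binds close to a listed start. RefSeq windows on GRCh38.p14, running from 250 bases before to 50 bases after each gene's start, were found for 7 of the 10 genes, and those of ACTB, TAGLN and MYL9 were missing. Each window was searched on both strands for the CArG box, whose exact form was present in 454 of 35116 windows of this length, 1.29%, and which with at most 1 departure was present in 18.9%. SRF itself had 2 exact matches, starting 30 and 10 bases before its start, and ACTG1 had 1, starting 94 bases before. ACTA2 had 2 matches with 1 departure each, starting 121 and 71 bases before the listed start. The stretches that hold these matches are shown, with capitals marking each CArG box; SRF lies at chr6:43171169-43171268 on the plus strand, ACTG1 at chr17:81512800-81512899 and ACTA2 at chr10:88952804-88952903, both on the minus strand.
SRF: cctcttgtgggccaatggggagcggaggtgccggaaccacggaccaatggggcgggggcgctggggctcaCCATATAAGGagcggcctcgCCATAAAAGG
ACTG1: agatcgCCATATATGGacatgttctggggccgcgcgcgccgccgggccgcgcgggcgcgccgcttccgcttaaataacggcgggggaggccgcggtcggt
ACTA2: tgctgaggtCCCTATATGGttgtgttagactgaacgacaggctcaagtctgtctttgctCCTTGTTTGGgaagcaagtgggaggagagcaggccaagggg

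CALD1 had a match with 1 departure in 2 of its 4 listed windows, and the windows of TPM1, TPM2 and VCL held none, which says only that these letters are not in them. Among the other genes of the pathway, the exact box was in a window of 9 of 21 contractile genes (ACTA1, ACTC1, ACTG2, CNN2, FHL1, FLNA, SMTN, TGFB1I1 and TPM4), 42.9%, against 1.60% of all 27305 genes with a window. That list was assembled from genes linked to SRF, so the share is not independent of what the factor is known to bind. The box was in 2 of 17 focal adhesion genes (ACTN1 and TES), 1 of 6 SRF cofactors (FHL2) and none of 21 actin assembly genes. A match is a description of the sequence and was not tied to binding in these cells.

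Between DMSO and 500 nM most of the members stood higher, and at 1000 nM the set split, with the actins, VCL and TPM2 near their 500 nM level, TPM1 back near DMSO and ACTA2 below it. At 500 nM, 30 of the 36 tested member probe sets were higher past an adjusted p of 0.05 in limma and 0 were lower, in a comparison where 45.4% of all tested probe sets passed, 23.1% higher and 22.3% lower. At 1000 nM, 23 were higher and 1, ACTA2, was lower, where 59.9% of all passed, 28.9% higher and 31% lower. The median log2 change of the members was 0.31 at 500 nM against 0.01 over all tested probe sets, and 0.21 at 1000 nM against -0.01. Of the 36, 3 (TAGLN 205547_s_at, TPM2 227397_at and CALD1 214880_x_at) passed the minimum level only through the high doses, and over the 33 others 27 were higher and 0 lower at 500 nM, and 21 higher and 1 lower at 1000 nM. Of all 36, 15 belong to ACTB or are shared by ACTG1 and ACTB and so do not count as separate genes. Among the 21 others, 19 were higher at 500 nM and 12 were higher and 1 lower at 1000 nM. The set was chosen with the 500 and 1000 nM results of actin in view, so these counts describe it and support nothing further.

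**Figure D1:**
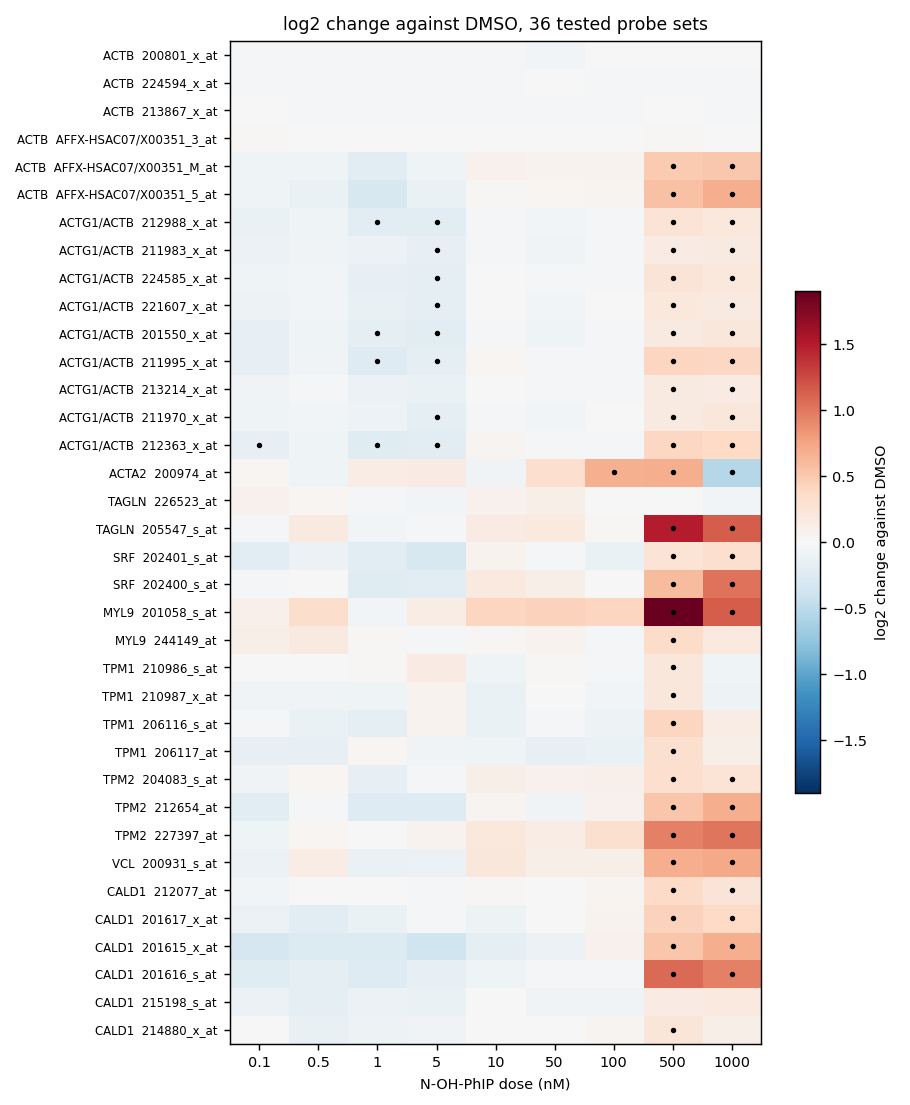
Each row is 1 of the 36 tested probe sets and each column a dose in nM against DMSO, coloured by the log2 change (red higher, blue lower), with a dot where limma's adjusted p was under 0.05. Dots stand in 30 of the 36 rows at 500 nM and 24 at 1000 nM, where the TPM1 rows among others have none, and the single blue cell with a dot at 1000 nM is ACTA2 at -0.54.

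Cytoplasmic actin, the protein of the filaments themselves, is encoded by ACTB and ACTG1, whose transcripts are so alike that 9 probe sets carry both symbols and none carries ACTG1 alone. These shared probe sets were bright, and the one that also passed the threshold at the low doses described further on is given as an example. Probe set 212363_x_at read 7470.0, 7844 and 7645 intensity units in DMSO, 10170.0, 9817 and 10334 at 500 nM, and 10107, 9787 and 10040.1 at 1000 nM. All 6 arrays of the high doses lay above all 3 DMSO arrays, and the high doses overlapped each other. Its log2 change was 0.40 ± 0.04 (SE) at 500 nM and 0.38 ± 0.04 at 1000 nM. All 9 shared probe sets passed the threshold as higher at both doses, with log2 changes from 0.16 to 0.41 at 500 nM and from 0.16 to 0.39 at 1000 nM. Over all tested probe sets 23.1% passed as higher at 500 nM and 28.9% at 1000 nM. No array of either dose overlapped DMSO in the 9. The share of all tested probe sets without overlap was not counted, so this separation has no background beside it. Between 1000 and 500 nM none of the 9 differed in limma, with changes from -0.06 to 0.05, in a comparison where 43.3% of all tested probe sets did, 17.7% higher and 25.6% lower.

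Of the 6 probe sets annotated to ACTB alone, 4 stayed at their DMSO level and 2 stood higher at the high doses. The 3′ control, near the poly(A) end, read 11126, 10674 and 10636 in DMSO, 10978, 10593 and 11464 at 500 nM, and 10759.6, 10821 and 10950.1 at 1000 nM. The 3 groups overlapped, with log2 changes of 0.03 ± 0.03 and 0.00 ± 0.03. The other 3 ACTB probe sets, 200801_x_at, 224594_x_at and 213867_x_at, were as bright, and their changes at the 2 high doses lay between -0.04 and 0.01, none past the threshold. The middle control read 5432, 5469.6 and 5975 in DMSO, 8350.2, 6821 and 8868 at 500 nM, and 7932, 8118 and 8038 at 1000 nM. Every high-dose array of the middle control lay above every DMSO array, with log2 changes of 0.50 ± 0.07 and 0.51 ± 0.07. The 5′ control, farthest from the poly(A) end, read 2321, 2249.8 and 2436 in DMSO, 3624, 2843 and 4006 at 500 nM, and 3721, 3713 and 3939.8 at 1000 nM. It too was separated from DMSO on every array, at 0.56 ± 0.09 and 0.70 ± 0.09.

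**Figure D2:**
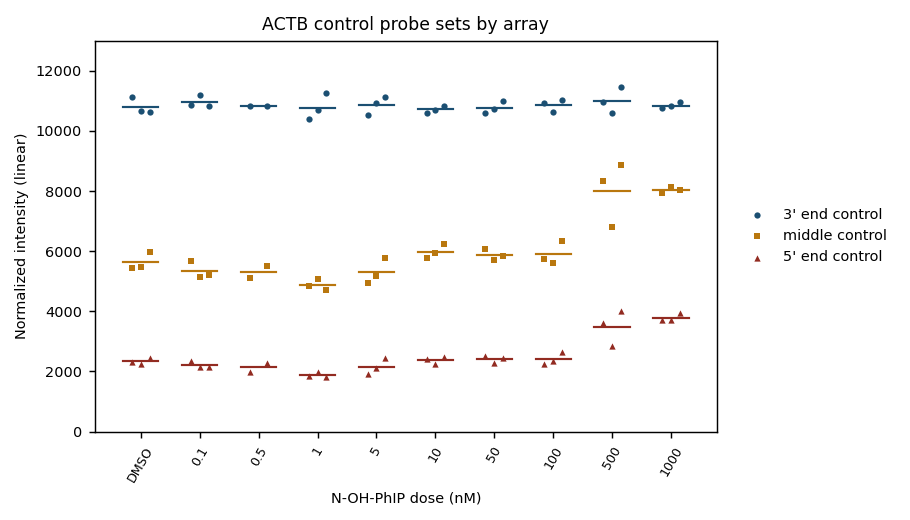
Normalized intensity (linear axis from 0) of the 3 ACTB control probe sets by array (points) and group mean (lines) across the doses in nM. The 3′ control has means of 10812 in DMSO, 11012 at 500 nM and 10844 at 1000 nM, while the middle and 5′ controls step up between 100 and 500 nM, the 5′ control from a DMSO mean of 2336 to 3791 at 1000 nM.

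The 3′ to 5′ log2 ratio that results is a description, since it chose the set. DMSO cultures had 2.20 ± 0.07 (SD, n = 3), those given 100 nM had 2.16 ± 0.11, and the values fell to 1.67 ± 0.20 with 500 nM and 1.51 ± 0.04 with 1000 nM. It went the other way at 1 nM, to 2.51 ± 0.10, the highest of the 10 groups. The step lay in the 3′ to middle part, which moved by -0.48 at 500 nM and -0.51 at 1000 nM, more than in the middle to 5′ part, which moved by -0.06 and -0.18. The same ratio for GAPDH was 0.14 ± 0.01 in DMSO, and 500 nM and 1000 nM left it at 0.20 ± 0.04 and 0.17 ± 0.01, a move of 0.05 and 0.03 in the other direction. The level of a probe set and its change can be set side by side over all genes. Among the 113 tested probe sets with a mean of 10000 intensity units or more, which include the 4 ACTB probe sets that did not change, 23.0% passed the threshold at 500 nM and 19.5% at 1000 nM, with a median absolute log2 change of 0.03 and 0.02. Among the 2437 with a mean of 2000 to 5000, which include the 5′ control, 53.4% and 66.7% passed, with medians of 0.15 and 0.20. Between them, among the 494 with a mean of 5000 to 10000, 43.7% and 58.5% passed, with medians of 0.08 and 0.11, and this range holds the middle control, at 0.50 and 0.51, and the 9 shared probe sets. The brightest value on any array was 20095. The part of brightness and of RNA or amplification quality in the difference between the ACTB probe sets was not tested.

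ACTA2 encodes the actin of smooth muscle and of contractile fibroblasts and is a classical SRF target. Only 1 of its 3 probe sets passed the minimum level, and it followed a course of its own. It read 608, 623 and 651 in DMSO, 744, 775 and 842 at 50 nM, 1098, 1189 and 783 at 100 nM, 1074, 1115 and 891 at 500 nM, and 482, 398 and 405 at 1000 nM. Arrays at 100 and 500 nM lay above every DMSO array and overlapped each other, and arrays at 1000 nM lay below every DMSO array. At 0.1, 0.5 and 10 nM the arrays overlapped DMSO, and at 1 and 5 nM they lay just above it, at 655 to 770.3 and 662 to 759.6.

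At 100 nM ACTA2 was the only member past the threshold, of 36 tested where 2.9% of all tested probe sets passed and 1.37% were higher. Its log2 change was 0.67 ± 0.11, a 1.59-fold rise (limma, adjusted p 7.2e-04), and leaving out any 1 array of the comparison gave 0.55 to 0.85, past the threshold each time. At 50 nM the change of 0.32 ± 0.11 did not pass (adjusted p 0.37), although all 3 arrays lay above DMSO. It was 0.69 ± 0.11 at 500 nM and -0.54 ± 0.11 at 1000 nM. Between the 2 high doses ACTA2 fell by 1.23 ± 0.11 on the log2 scale, 2.35-fold (limma, adjusted p 6.0e-09), with no overlap of arrays, the largest difference of any member in that comparison. A straight line on log10 dose gave a slope of 0.04 ± 0.06 per 10-fold dose, which does not describe a course that turns.

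**Figure D3:**
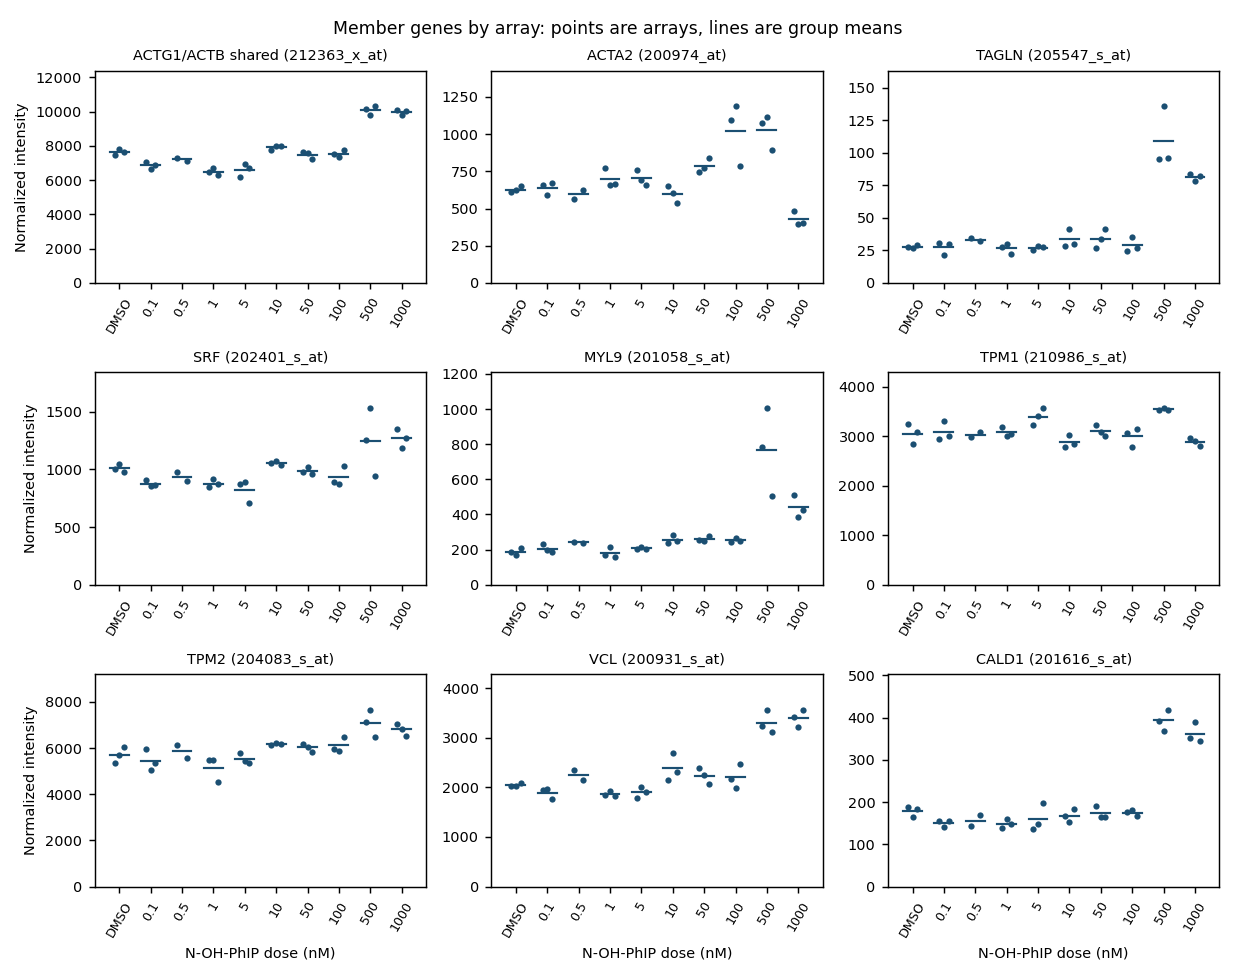
Normalized intensity (linear axes from 0) of 1 probe set each of 9 genes or gene pairs, with points for arrays and lines for group means at DMSO and 9 doses in nM. Most panels step up between 100 and 500 nM, ACTA2 is already up at 100 nM and lies below DMSO at 1000 nM, and MYL9 and TAGLN peak at 500 nM. The shared actin, TAGLN and CALD1 panels show 212363_x_at, 205547_s_at and 201616_s_at, which are not the brightest of their genes and rose more than the brightest. The brightest tested TAGLN probe set, 226523_at, changed by 0.00 at 500 nM and -0.06 at 1000 nM. Probe sets of ACTB alone are not shown.

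MYL9, the regulatory light chain of non-muscle and smooth muscle myosin, had the widest range of the members, 1.94 log2 units between its lowest and highest group means. Probe set 201058_s_at read 188, 169 and 208 in DMSO, 246, 265 and 250.1 at 100 nM, 783, 1007 and 503 at 500 nM, and 510.5, 386 and 424 at 1000 nM. All arrays of both high doses lay above DMSO, while the lowest array at 500 nM fell just under the highest at 1000 nM. The log2 change was 1.88 ± 0.15 at 500 nM, 3.69-fold, and 1.16 ± 0.15 at 1000 nM, 2.23-fold. The drop from 500 to 1000 nM was 0.73 ± 0.15 on the log2 scale (limma, adjusted p 3.9e-04). At 0.5, 10, 50 and 100 nM the arrays also lay above DMSO, between 235 and 281, while at 0.1, 1 and 5 nM they overlapped it. The changes at the former doses, 0.34 ± 0.17 at 0.5 nM (adjusted p 0.50), 0.44 ± 0.15 at 50 nM (adjusted p 0.35) and 0.40 ± 0.15 at 100 nM (adjusted p 0.18) among them, did not pass in limma. The second MYL9 probe set, 244149_at, was dim and changed by 0.35 ± 0.11 at 500 nM and 0.19 ± 0.11 at 1000 nM, past the threshold only at the first.

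TAGLN encodes transgelin, a calponin-related protein that binds actin filaments and is another textbook SRF target. Its probe sets disagreed. Probe set 205547_s_at read 27.7, 27.2 and 29.0 in DMSO, 95.2, 136 and 95.8 at 500 nM, and 84.2, 78.7 and 82.0 at 1000 nM. The groups did not overlap, and the log2 changes were 1.49 ± 0.13 and 1.15 ± 0.13, 2.81-fold and 2.22-fold after the offset of 16 intensity units that shrinks changes of dim probe sets. Its DMSO level lies under the minimum of 37.4, and its mean log2 value of 5.77 over all arrays passed the minimum of 5.74 only through the high doses. Probe set 1555724_s_at stood just outside at 5.62 and was not tested: it read 19.4, 30.5 and 24.3 in DMSO, 79.7, 113 and 69.9 at 500 nM, and 68.9, 63.9 and 55.9 at 1000 nM. Probe set 226523_at stayed at 63.1 ± 7.41 (SD) in DMSO, 63.1 ± 2.01 at 500 nM and 59.9 ± 3.77 at 1000 nM, with changes of 0.00 ± 0.09 and -0.06 ± 0.09. Between 1000 and 500 nM the log2 change of 205547_s_at was -0.34 ± 0.13, and it was -0.19 without 500 nM replicate 2. No test is given for it because 205547_s_at was kept only through these arrays. That of 226523_at was -0.06.

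SRF itself was moderately expressed. Probe set 202401_s_at read 1005, 1050.4 and 981 in DMSO, 1256, 1534 and 943 at 500 nM, and 1348, 1184 and 1273 at 1000 nM. At 500 nM replicate 3 lay below all DMSO arrays while the other replicates lay well above, and at 1000 nM all arrays lay above. The change at 500 nM was 0.27 ± 0.11, and leaving out an array gave values from 0.10 (without 500 nM replicate 2) to 0.45. As a description only, it was past the threshold by little and fell short of it without any of 5 of the 6 arrays compared. The change at 1000 nM was 0.32 ± 0.11, lost without 1000 nM replicate 1 at 0.28. Probe set 202400_s_at, dimmer, read 69.5, 91.0 and 100.2 in DMSO, 146, 172 and 104 at 500 nM, and 259, 163 and 168 at 1000 nM. It was above DMSO on all 6 arrays, by 0.60 ± 0.16 and 1.03 ± 0.16, and it was the only member higher at 1000 than at 500 nM in limma (0.43 ± 0.16, adjusted p 0.026), with overlapping arrays. That difference was lost without 1000 nM replicate 1 (0.23, adjusted p 0.24) and without 500 nM replicate 3 (0.25, adjusted p 0.19), and the adjusted p ran from 0.0058 to 0.24 over the alternatives.

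The tropomyosins wind along actin filaments and set which myosins and severing factors can reach them. TPM1 and TPM2 parted at the highest dose. TPM1 210986_s_at read 3236, 2837 and 3084 in DMSO, 3533, 3571 and 3525 at 500 nM, and 2971, 2892 and 2796 at 1000 nM. The 500 nM arrays were tightly grouped above all DMSO arrays, and those at 1000 nM overlapped DMSO. All 4 tested TPM1 probe sets were higher past the threshold at 500 nM, by 0.21 to 0.40, and 0 of 4 passed at 1000 nM, with changes from -0.10 to 0.14. Over all tested probe sets 23.1% were higher at 500 nM and 59.9% passed in either direction at 1000 nM. Between the doses 3 of the 4 fell, by 0.29 ± 0.05 for 210986_s_at (limma, adjusted p 6.5e-05), 0.31 ± 0.05 for 210987_x_at (adjusted p 2.3e-05) and 0.26 ± 0.08 for 206116_s_at (adjusted p 0.010). In that comparison 25.6% of all tested probe sets were lower.

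TPM2 204083_s_at read 5362, 5701 and 6031 in DMSO, 7143, 7666 and 6489 at 500 nM, and 7056, 6834 and 6534 at 1000 nM. The high doses lay above DMSO and overlapped each other, at 0.31 ± 0.07 and 0.26 ± 0.07. The dimmer probe sets of TPM2 gave larger changes, 0.53 ± 0.11 and 0.68 ± 0.11 for 212654_at and 0.96 ± 0.13 and 1.01 ± 0.13 for 227397_at, the last from a DMSO mean of 30.7 that is under the minimum level. Between 1000 and 500 nM neither 204083_s_at (-0.06 ± 0.07) nor 212654_at (0.16 ± 0.11) passed in limma, and 227397_at, kept only through the high doses, read a mean of 74.3 at 500 nM and 77.5 at 1000 nM.

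VCL encodes vinculin, which links integrin-bound talin to actin at focal adhesions. Its probe set 200931_s_at read 2021, 2029.6 and 2091 in DMSO, 1977 to 2477 at 100 nM, 3233, 3566 and 3111 at 500 nM, and 3411, 3209 and 3563 at 1000 nM. It was separated from DMSO on all arrays of the high doses, by 0.68 ± 0.08 at 500 nM and 0.72 ± 0.08 at 1000 nM, 1.61-fold and 1.65-fold. The difference between the high doses was 0.04 ± 0.08 (limma, adjusted p 0.71). The other VCL probe set read at most 14.5 on any array and was not tested.

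CALD1 encodes caldesmon, which binds actin and tropomyosin and restrains myosin. Of its 11 probe sets 6 passed the minimum level. The brightest, 212077_at, read 1868, 1836 and 1777 in DMSO, 2339, 2401 and 2300.0 at 500 nM, and 1995, 2207 and 2287 at 1000 nM. No array of the high doses overlapped DMSO, at 0.36 ± 0.05 and 0.24 ± 0.05. Probe set 201616_s_at read 187, 164 and 184 in DMSO, 393, 369 and 419 at 500 nM, and 351, 391 and 344 at 1000 nM, with log2 changes of 1.07 ± 0.10 and 0.96 ± 0.10. Probe sets 201617_x_at and 201615_x_at lay between these, at 0.44 and 0.52 at 500 nM and 0.38 and 0.70 at 1000 nM. In all, 5 of the 6 were higher past the threshold at 500 nM and 4 of 6 at 1000 nM, and 0 of 6 passed between the high doses in limma (1 had an unadjusted p under 0.05). The shares over all tested probe sets past the adjusted threshold were 23.1% higher at 500 nM, 28.9% higher at 1000 nM and 43.3% passing between the high doses. The share of all with an unadjusted p under 0.05 was not counted. Of the 6 CALD1 probe sets, 214880_x_at was kept only through the high doses.

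Apart from ACTA2 at 100 nM, the changes that passed the threshold at doses up to 100 nM were downward and lay in the shared cytoplasmic actin probe sets. At 5 nM, 8 of the 9 shared ACTG1/ACTB probe sets were lower, by 0.16 to 0.21 on the log2 scale, and no other member passed, where 1.11% of all tested probe sets passed and 0.769% were lower. At 1 nM 4 of the 9 were lower, by 0.19 to 0.24, with 0.78% of all passing and 0.575% lower, and at 0.1 nM 1 was lower, by 0.16, with 0.597% passing and 0.487% lower. Probe set 212363_x_at, the one that passed at all 3 doses, read 7091, 6630.2 and 6870.4 at 0.1 nM, 6488, 6688 and 6297 at 1 nM, and 6189, 6970.2 and 6685 at 5 nM. All 9 of these arrays lay below the lowest DMSO array of 7470.0, and limma gave adjusted p-values of 0.044, 0.0010 and 0.0037. Those counts depend on single arrays and on the fit. The 8 at 5 nM became 0 without DMSO replicate 2, 5 without DMSO replicate 1, 3 without 5 nM replicate 1, 4 without 5 nM replicate 3, and 0 with only the groups compared in the fit. The 4 at 1 nM became 1 without DMSO replicate 2, 1 without 1 nM replicate 1 and 8 with only the groups compared, and the 1 at 0.1 nM was lost without DMSO replicate 2 or 3 or 0.1 nM replicate 2 or 3 and became 2 without DMSO replicate 1.

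At 0.5, 10 and 50 nM no member passed in limma, where 0.0439%, 0.242% and 0.264% of all tested probe sets did. An unadjusted p under 0.05, a looser threshold, was met by 2, 3 and 3 of the 36. The share of all tested probe sets that met it was not counted, so these counts cannot be set against the percentages. At 10, 50 and 100 nM the changes of the 9 shared actin probe sets lay between -0.08 and 0.05. Their arrays overlapped DMSO except for 201550_x_at at 10 nM and 212988_x_at, 211983_x_at and 201550_x_at at 50 nM, which lay wholly below it. How many of all tested probe sets were so separated at these doses was not counted, so nothing is drawn from it. Probe set 212363_x_at read 7748 to 8019 at 10 nM, 7225 to 7663 at 50 nM and 7360.3 to 7784 at 100 nM. SRF 202401_s_at also stood below all DMSO arrays at 0.1, 0.5, 1 and 5 nM, at 707 to 977, without passing the threshold at any of them. The 3′ to 5′ actin ratio was higher in the same groups, at 2.30, 2.34, 2.51 and 2.33 for 0.1, 0.5, 1 and 5 nM against 2.20 in DMSO, and its part in the lower actin readings was not tested.

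Over the 26 treated arrays the slope on log10 dose, which uses no DMSO array, was positive past the threshold in 27 of 36 members and negative in 0, where 59.5% of all tested probe sets passed in either direction and 30.6% were positive. For the 3 probe sets kept only through the high doses a positive slope was built in, and without them 24 of 33 were positive and 0 negative. The median slope was 0.08 log2 units per 10-fold dose against 0.00 over all. MYL9 201058_s_at had 0.35 ± 0.06, CALD1 201616_s_at 0.31 ± 0.05 and VCL 0.20 ± 0.03. TAGLN 205547_s_at, kept only through the high doses, had 0.31 ± 0.06. The members did not climb evenly. Up to 100 nM, only ACTA2 at 100 nM and the lower actin readings at 0.1, 1 and 5 nM passed the threshold. At 500 nM 30 of the 36 member probe sets passed. Over all tested probe sets the share passing also stepped, from 0.0439% to 2.9% at doses up to 100 nM to 45.4% at 500 nM.

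Among the 10 group means, the brightest tested probe sets of CALD1, MYL9, SRF, TPM2, VCL and the shared actins followed each other with Pearson r of 0.83 to 0.97. Those of TPM1 and ACTA2 correlated with each other at 0.60 and with these 6 at -0.18 to 0.38, and those of ACTB and TAGLN hardly moved. The group means share the step at 500 nM and the same arrays, so these values are a description with no test. The genes whose group means were most like those of MYL9 201058_s_at, among 12174 genes and over 10 groups, were TRIM35 (r 0.992), FAM83H (0.989), MCAM (0.988), CARD10 (0.987) and IL22RA1 (0.986).

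The other genes of the pathway, 1 probe set a gene, were read from the same fit. Read this way over all 12174 genes, 25.2% were higher and 24.8% lower at 500 nM, and 27.3% were higher and 35.8% lower at 1000 nM, which is the background for the counts that follow. Of the cofactors of SRF, 6 of 8 genes were tested, and at 1000 nM 3 were lower and 0 higher past the threshold, with a median log2 change of -0.28 against -0.04 over all genes. MRTFB, the actin-sensing coactivator, had a mean of 2835 ± 45.1 (SD, n = 3) in DMSO, 1943 ± 83.6 at 500 nM and 1441 ± 91.0 at 1000 nM, so that it fell by 0.54 ± 0.04 and 0.97 ± 0.04 on the log2 scale (limma, adjusted p 1.9e-10 and 1.2e-15). ELK4, a ternary complex factor, fell by 0.52 ± 0.05 at 1000 nM (adjusted p 4.8e-09), and MRTFA, the other actin-sensing coactivator, by 0.41 ± 0.16 (adjusted p 0.028). At 500 nM 2 were higher and 3 lower, FHL2, an LIM protein that binds SRF, being higher by 0.38 ± 0.08 (limma, adjusted p 2.6e-04) and at -0.14 ± 0.08 at 1000 nM (adjusted p 0.12). The 2 became 1 without DMSO replicate 1, without 500 nM replicate 1, with the GAPDH ratio as a covariate and with only the groups compared, where the 3 also became 1.

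Of the other contractile and SRF-linked genes, 15 of 23 were tested, and 12 were higher and 0 lower at 500 nM (median 0.29 against 0.01 over all genes), and 9 higher and 0 lower at 1000 nM (median 0.25), where 1 was lower without DMSO replicate 1. SMTN, smoothelin, which binds actin in contractile cells, went from 95.3 ± 8.67 in DMSO to 238 ± 66.0 at 500 nM and 256 ± 12.1 at 1000 nM, a log2 change of 1.29 ± 0.13 at 1000 nM (limma, adjusted p 2.4e-09). CSRP1, an LIM protein of actin bundles, went from 1694 ± 79.2 to 2762 ± 485 and 2526 ± 39.0, a change of 0.57 ± 0.09 at 1000 nM (adjusted p 2.3e-06).

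Of the focal adhesion and crosslinker genes, 10 of 17 tested were higher and 4 lower at each of the 2 doses, with medians of 0.22 and 0.25, and with only the groups compared in the fit the 10 at 500 nM became 6. ACTN4, the actin crosslinker alpha-actinin 4, was higher at 1000 nM by 0.97 ± 0.12 (limma, adjusted p 6.3e-08), and ITGA5, a fibronectin receptor subunit, by 0.69 ± 0.11 (adjusted p 1.1e-05). TNS3, tensin 3, fell by 1.53 ± 0.10 (adjusted p 8.0e-13) and TLN2, talin 2, by 1.13 ± 0.13 (adjusted p 3.0e-08), from 102 to 37.9 intensity units, near the minimum level.

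Of the genes of actin assembly and turnover, 7 were higher and 4 lower of 20 tested at 500 nM (median 0.04) and 7 higher and 6 lower at 1000 nM (median -0.02). The 7 at 500 nM became 4 to 6 with an array left out, with 4 being reached without DMSO replicate 1 or 2 or 500 nM replicate 1 or 3, and became 4 without the mean-variance trend, 3 with the GAPDH ratio as a covariate and 2 with only the groups compared. The formin DIAPH2, which nucleates unbranched filaments, went from 375 ± 27.3 to 38.9 ± 6.86 at 500 nM and 55.0 ± 16.2 at 1000 nM, log2 changes of -2.84 ± 0.12 and -2.48 ± 0.12 (limma, adjusted p 4.5e-16 and 1.7e-15). The formin DIAPH3 fell by 0.50 ± 0.04 at 1000 nM (adjusted p 2.1e-11), while DIAPH1 was higher by 0.39 ± 0.07 (adjusted p 4.1e-05) and the severing protein CFL1 by 0.25 ± 0.04 (adjusted p 2.2e-06).

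**Figure D4:**
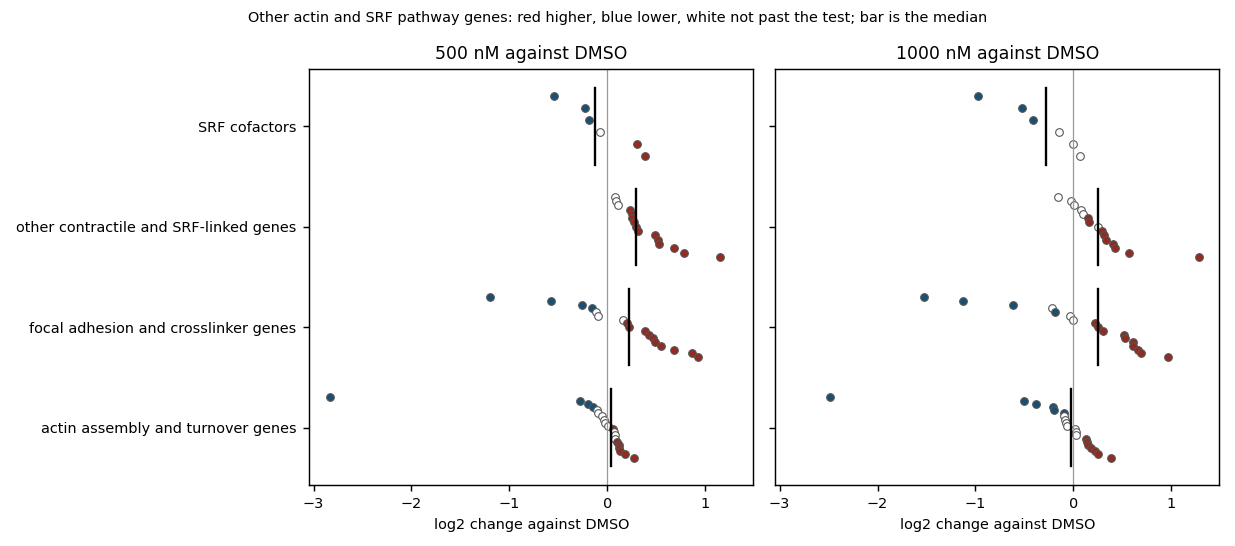
Each point is a gene of 1 of 4 pathway lists, placed by its log2 change against DMSO at 500 nM (left) and 1000 nM (right), red where higher and blue where lower past an adjusted p of 0.05, white otherwise, with a bar at the list's median. The contractile genes lie to the right of 0 at 500 nM, the SRF cofactors lean left at 1000 nM, and the point far to the left among the assembly genes is DIAPH2 at -2.84 and -2.48.

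The labelled cell type was checked with marker genes. All 7 bronchial epithelial markers with a single-symbol probe set, KRT5, KRT7, KRT8, KRT18, KRT19, EPCAM and CDH1, were above the minimum level, and their summed level was 20992 to 21787 in DMSO, 25409 to 29096 at 500 nM and 24229.8 to 25929.6 at 1000 nM. Of 8 smooth muscle markers MYH11, DES, SMTN and SYNM were above it, and CNN1, LMOD1, MYOCD and ACTG2 were below it over all arrays. The sum was 1152 to 1364 in DMSO, 1815 to 2207 at 500 nM and 2329 to 2440.1 at 1000 nM, mostly SYNM. In DMSO, 500 nM and 1000 nM, SYNM had means of 915, 1508 and 1878, SMTN 95.3, 238 and 256, and MYH11 120, 131 and 105. ACTG2 had a mean of 25.2 with solvent alone, and its means of 38.5 and 38.2 with 500 and 1000 nM passed the minimum level. Of 8 fibroblast markers only COL1A1 was above it, while COL1A2, COL3A1, DCN, LUM, PDGFRA, PDGFRB and THY1 were below, with sums of 679 to 764, 1043 to 1208 and 863 to 954. Of the leukocyte markers 1 of 4 and of the endothelial markers 0 of 4 were above it. In cultures measured in bulk, fewer cells of a type and less RNA per cell cannot be told apart, and the part of the smooth muscle and fibroblast markers in the members' values was not tested.

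Array medians ran from 35.8 to 38.4 intensity units, and arrays of a group correlated at 0.980 or more over the tested probe sets. The lowest correlation was that of 500 nM replicates 2 and 3, the pair that also differed most in MYL9 and SRF. The number of arrays, 2 or 3 a group, limits the precision of every value given.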

How the data were processed

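The authors deposited 1 intensity for each probe set of an Affymetrix 3′ expression array, on a linear scale. Their normalization method was not given in the sources used here. RNA was amplified with NuGEN Ovation, per the labels' protocols, and GCOS, with no version, is named in the submitters' processing notes. Replicates are separate cultures per the labels. Doses were taken from the sample titles, which go down to 0.1 nM, lower than the 0.5 nM at which the design text starts. Of the 54675 probe sets, 41091 had 1 gene symbol, 1801 several and 11721 none in the array's annotation, and 41037 of the first were matched to RefSeq by gene identifier. Control probe sets (62) were left out except the 3 of actin.

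From these, log2(intensity + 16) was computed, probe sets with a mean of at least the median, 5.74, were tested (27310), and all 10 groups were fitted together in limma 3.58.1 (R 4.3.3) with a trend of variance on mean level and 19 degrees of freedom left, two-sided tests and Benjamini-Hochberg adjustment over all tested probe sets at 0.05. The trend used the 26 treated arrays. Changes are on this scale. A fold is 2 to the power of the change, and SE is limma's.

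The members and lists were chosen with earlier results of these data known. Named were all members, from each list the 2 largest called rises and falls at 1000 nM with FHL2 and MRTFA added after their values were seen, and the 5 genes most like the member of widest range. The results of 1 further gene list are not reported here. Promoters came from RefSeq GRCh38.p14. Alternatives were median centring, quantile normalization, an offset of 1, other level filters, no mean-variance trend, a replicate block, a GAPDH ratio covariate, only the groups compared, 0.1 and 1 nM as reference, and each array left out. The code was tested on simulated data. Figures were drawn with matplotlib 3.10.9 in Python 3.11.15.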

Additional observations from a re-analysis of the deposited data

How the results depend on the processing

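The number of member probe sets past the threshold held within 1.5 times for 500 nM, 1000 nM and the trend under each alternative run, and with an array left out it ran from 27 to 29 (30 with all arrays), 23 to 26 (24) and 26 to 27 (27). Counted over the 7 doses up to 100 nM it was 14, became 9 with median centring and 5 without the mean-variance trend, and ran from 2 to 19 with an array left out, the lowest without DMSO replicate 2. For 1000 against 500 nM it was 7 of 36, became 4 on the upper 25% of mean level and 4 with only those groups in the fit, and ran from 6 to 8 with an array left out. Without the 3 probe sets kept only through the high doses, 1 was higher and 5 lower of 33 in that comparison. Over all tested probe sets 45.4% passed at 500 nM, 59.9% at 1000 nM, 59.5% in the trend and 43.3% between the high doses. The change of the actin 3′ to 5′ log2 ratio ran from -0.65 to -0.46 at 500 nM and from -0.73 to -0.67 at 1000 nM. The cause of these shifts was not tested, except that the upper 25% holds fewer probe sets and the fit of the compared groups fewer arrays. Single member changes were followed for the brightest tested probe set of each gene. Also followed were TAGLN 205547_s_at, SRF 202400_s_at, CALD1 201616_s_at, the shared actin 212363_x_at and the middle and 5′ actin controls. They were followed at 500 and 1000 nM against DMSO and for 1000 against 500 nM, and ACTA2 also at 100 nM. Of these, no called change reversed under any alternative run, and the other member probe sets were not followed singly. Of the member changes followed, 8 lost and 1 gained the threshold among 458 values under other settings, and 11 and 3 among 294 with an array left out, mostly those of SRF and of TAGLN between the high doses. TAGLN 205547_s_at is in these counts although it was kept only through the high doses, so its part in them is no test. With the replicate number as a block the counts were 30, 24, 27, 14 and 7, as without it. Same-numbered arrays of different groups correlated at a median of 0.01 in their deviations, with 37 of 126 pairs over 0.1, so the numbers were not taken to pair the samples. Signal over background limits the dim probe sets, and TAGLN 205547_s_at and TPM2 227397_at start under the minimum level.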
